A study of Schizosaccharomyces pombe with 8 samples.

Results

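The genes described here are 10 genes of sexual differentiation in fission yeast, Schizosaccharomyces pombe, taken by name from the 5129 genes that both deposited result tables list. They are the regulators ste11 (SPBC32C12.02), mei2 (SPAC27D7.03c) and map1 (SPAC11E3.06), the M-factor genes mfm1 (SPAPB8E5.05), mfm2 (SPAC513.03) and mfm3 (SPBPJ4664.03), the M-factor exporter mam1 (SPBC25B2.02c), the P-factor gene map2 (SPCC1795.06), and the receptor genes mam2 (SPAC11H11.04) and map3 (SPAC3F10.10c). The members were chosen by function, but with earlier results of these data known. Poly(A)-selected RNA was sequenced in 8 libraries, with 2 libraries each for WT, seb1-1, epe1KO and epe1KO_tfs1DN by the labels, and each table compares a pair of groups. The seb1-1 comparison sets seb1-1, a viable mutant allele of the gene for the RNA-binding protein Seb1, against WT. The tfs1DN comparison sets epe1KO_tfs1DN against epe1KO, so that all 4 of its libraries are labelled as lacking Epe1, an anti-silencing factor. The tfs1DN construct produces a dominant-negative variant of TFIIS, the factor that helps backtracked RNA polymerase II to restart. It was driven by the thiamine-repressible nmt1 promoter beside the resident tfs1 gene, and the RNA came from a single isolate. The paper states that thiamine was present in these experiments, because strong expression kills cells without Epe1. By its RNA-seq of cells grown in thiamine, a minority of tfs1 transcripts came from the construct, through leaky repression. Cultures were grown in rich medium with glucose. The labels do not give the mating type, nor whether the libraries of a group are separate cultures, so the p-values measure only the spread between these libraries, which may be technical.

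Fission yeast cells mate and enter meiosis when nitrogen runs out. Nutrient and stress signals then raise the transcription factor Ste11, which switches on genes for pheromones, pheromone receptors, signalling and the meiotic regulator Mei2. M cells secrete the farnesylated peptide M-factor through the transporter Mam1 and sense P-factor with the receptor Mam2, while P cells secrete P-factor and sense M-factor with the receptor Map3. Map1 is the MADS-box factor that P cells need for their own genes. Receptor signalling runs through the G protein subunit Gpa1, Ras1 and the kinases Byr2, Byr1 and Spk1, and feeds back on Ste11.

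In the libraries labelled epe1KO_tfs1DN, 7 of the 10 genes rose and none fell: ste11, mei2, map1, mfm1, mfm2, mfm3 and mam2. Here a gene rose or fell if its adjusted p in the deposited table was below 0.01. Among all genes with an adjusted p, 2.37% rose and 2.21% fell by that rule. The P-factor gene map2, the M-factor receptor gene map3 and the exporter gene mam1 did not pass. The Wald scores of this table had a spread of 1.48 over all genes, and after scaling to a spread of 1 only mfm1 of the 7 passed. In seb1-1 all 10 log2 fold changes were below 0, as were 53.9% of all genes, but only mei2 fell, where 0.302% of genes fell and 0.181% rose. The median log2 fold change of the 10 genes was 0.76 in the tfs1DN comparison and -0.48 in the seb1-1 comparison, against -0.00029 and -0.03 over all genes. All fold changes are as deposited, with moderation: the less a gene's counts could say, the nearer to 0 its value was drawn.

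The tables hold no value per library. Each gives the mean normalized count over its 4 libraries, and the level of each group was computed from that mean and the fold change with its moderation undone. These levels carry no replicate error, and whether the libraries of 2 groups overlapped could not be seen. The tables were normalized separately, so a level in one pair of groups is set beside a level in the other as a description only.

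The gene ste11 was the most abundant of the 10 in the WT and seb1-1 pair, with a mean of 1282 normalized counts. Its implied levels were 1725 in WT and 840 in seb1-1, and 1596 in epe1KO and 2847 in epe1KO_tfs1DN. Its log2 fold change was 0.73 in the tfs1DN comparison (95% interval 0.46 to 1.00, adjusted p = 1.29e-05) and -0.68 in the seb1-1 comparison (-1.40 to 0.04, adjusted p = 0.578). The levels of ste11 in WT and in epe1KO were close. The mutant group lay above its control in the tfs1DN comparison, and below it in the seb1-1 comparison without passing the test.

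The gene mei2, whose product is an RNA-binding protein that starts premeiotic DNA synthesis and meiosis I, had the widest spread of levels among the regulators. It stood at 319 in WT, 95 in seb1-1, 1707 in epe1KO and 3106 in epe1KO_tfs1DN. It fell in seb1-1, with a log2 fold change of -1.34 (-1.98 to -0.70, adjusted p = 0.00878), the only one of the 10 to pass there. With the moderation undone the log2 fold change was -1.75. It rose in the tfs1DN comparison by a log2 fold change of 0.76 (0.49 to 1.03, adjusted p = 2.97e-06). The fall in seb1-1 lay near the threshold: centring the table on the median gene gave an adjusted p of 0.0116, and scaling the Wald scores one of 0.0135.

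The gene map1 was scarce in the WT and seb1-1 pair, at 40.6 in WT and 28.6 in seb1-1, a log2 fold change of -0.29 (-1.03 to 0.46, adjusted p = 0.969). It stood at 194 in epe1KO and 429 in epe1KO_tfs1DN, and rose by a log2 fold change of 0.91 (0.58 to 1.25, adjusted p = 7.83e-06). Thus the factor that P cells use for their own genes rose beside ste11 and mei2, while map2 and map3, which are P cell genes, did not pass.

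**Figure D1:**
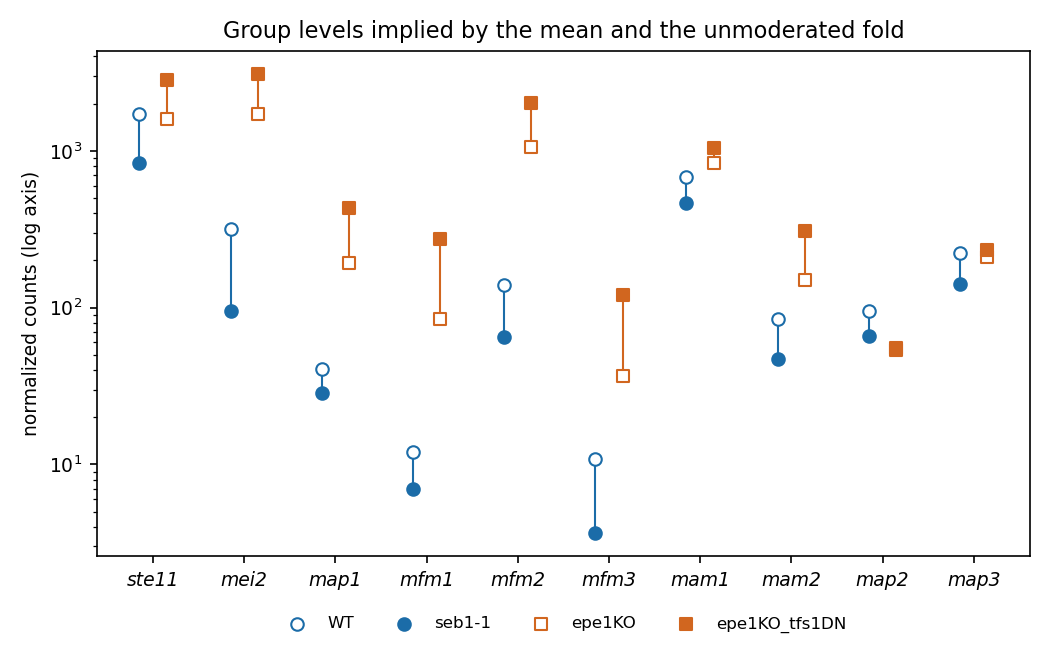
Levels of the 10 genes in each group, in normalized counts on a log axis, computed from the deposited mean and the unmoderated fold change. Circles are WT (open) and seb1-1 (filled), squares are epe1KO (open) and epe1KO_tfs1DN (filled), lines join the groups of a table, and no error is shown because the tables hold no value per library. The gap between the 2 tables was widest for mfm1, mfm2, mei2, mfm3 and map1, and the filled squares of map2 and map3 lie near their open squares.

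The M-factor genes mfm1, mfm2 and mfm3 all rose in the tfs1DN comparison. They encode precursors of the same peptide, and no source used here says how reads that match more than 1 of them were counted, so their separate values are uncertain. The gene mfm1 stood at 84.4 in epe1KO and 275 in epe1KO_tfs1DN, and its log2 fold change of 1.15 (0.76 to 1.54, adjusted p = 6.84e-07) was the largest among the 10 genes. It was also the only one past 2-fold on the moderated scale, where 0.301% of all genes rose by more than 2-fold. The gene mfm2 stood at 1055 and 2020, with a log2 fold change of 0.77 (0.45 to 1.09, adjusted p = 0.000101). The gene mfm3 stood at 36.8 and 121, with a log2 fold change of 0.99 (0.58 to 1.40, adjusted p = 0.000101). With the moderation undone the log2 fold changes of mfm1, mfm2 and mfm3 were 1.71, 0.94 and 1.71, so that the values of mfm1 and mfm3, the scarcer genes, had been pulled in most.

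In the seb1-1 comparison mfm2 had a log2 fold change of -0.74 (-1.45 to -0.04), with an unadjusted p of 0.0384 and an adjusted p of 0.473. It and mei2 were the 2 of the 10 below 0.05 before adjustment; over all genes 4.71% were below 0.05 with a negative fold change. The log2 fold change of mfm1 was -0.26 (-0.98 to 0.45) at a mean of 9.47 counts, and that of mfm3 was -0.46 (-1.15 to 0.22) at a mean of 7.21, for which the table gives no adjusted p. At such means a change in mfm1 or mfm3 was hardly detectable, and their fold changes without moderation have 2 solutions, -0.78 or -0.40 for mfm1 and -1.56 or -0.66 for mfm3.

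Among the other M cell genes, mam2, which encodes the P-factor receptor, rose in the tfs1DN comparison. It stood at 85.1 in WT, 47.4 in seb1-1, 151 in epe1KO and 310 in epe1KO_tfs1DN. Its log2 fold change was 0.78 (0.42 to 1.14, adjusted p = 0.00081) there and -0.52 (-1.25 to 0.21, adjusted p = 0.808) in the seb1-1 comparison. The exporter gene mam1 was more abundant, at 683 in WT, 468 in seb1-1, 843 in epe1KO and 1041 in epe1KO_tfs1DN. Its log2 fold change of 0.27 in the tfs1DN comparison (0.0021 to 0.53) had an unadjusted p of 0.0482 and an adjusted p of 0.232, and that of -0.44 in the seb1-1 comparison (-1.03 to 0.14) an adjusted p of 0.783.

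The P cell genes did not pass in either comparison. The P-factor gene map2 stood at 95.7 in WT, 65.9 in seb1-1, 53.4 in epe1KO and 55.7 in epe1KO_tfs1DN. Its log2 fold change was 0.03 (-0.38 to 0.44, adjusted p = 0.955) in the tfs1DN comparison and -0.38 (-1.07 to 0.31, adjusted p = 0.898) in the seb1-1 comparison. The M-factor receptor gene map3 stood at 223, 142, 210 and 233 in the same order of groups, with log2 fold changes of 0.12 (-0.23 to 0.46, adjusted p = 0.766) and -0.49 (-1.13 to 0.16, adjusted p = 0.783). The intervals of map2 and map3 in the tfs1DN comparison end below the log2 fold change of every gene that rose among the 10. Those genes were picked for having passed, and the intervals of ste11, mfm2 and mam2 begin below the upper end of map3.

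The fold changes of the 5 M cell genes, mfm1, mfm2, mfm3, mam1 and mam2, were then set against those of map2 and map3, gene by gene. In the tfs1DN comparison the M cell gene had the higher log2 fold change in all 10 pairs, by 0.15 to 1.12, and the 95% interval of the difference excluded 0 in 8 of them. The 2 others were the pairs with mam1. Markers outside the 10 genes were not paired, and they were less uniform. In the tfs1DN comparison the M cell markers mam3, sxa2 and matMc had 0.55, 0.16 and -0.23, the last at a mean of 6.22. The P cell markers map4 and sxa1 had 0.25 and 0.14. In the seb1-1 comparison the differences ran from -0.36 to 0.22 and the interval excluded 0 in none. These intervals are unadjusted, and they treat genes measured in the same libraries as independent. The pairs also reuse the same genes. Some of their values are uncertain, those of the M-factor genes through shared reads and those of map3, mfm3 and mam1 through transcripts on the opposite strand. The SEs were not widened for the spread of 1.48 among the Wald scores of the tfs1DN comparison. In the tfs1DN comparison the intervals of the pairs with mfm2 or mam2 began nearest 0, at 0.17 to 0.22. Widened by that spread, they would include 0. Those of the pairs with mfm1 or mfm3 began at 0.34 to 0.55.

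**Figure D2:**
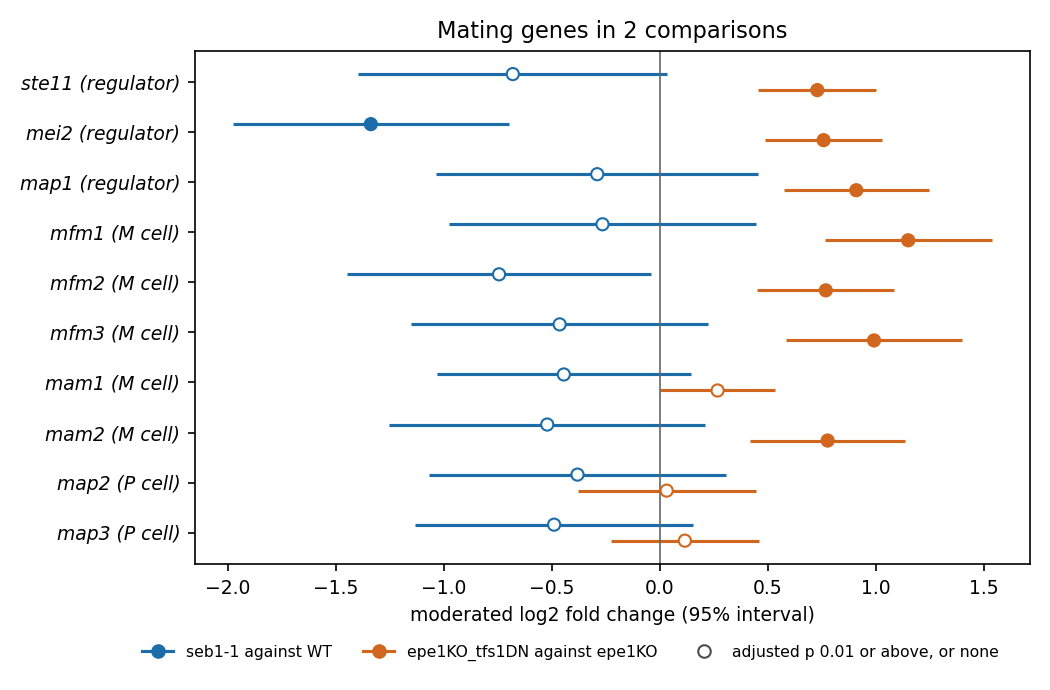
Moderated log2 fold change of each gene in the seb1-1 comparison (blue) and the tfs1DN comparison (orange), with bars for the 95% interval, 1.96 SE on either side. Filled points passed an adjusted p of 0.01; the 7 filled orange points lie between 0.73 and 1.15, and mei2 is the only filled blue point, at -1.34.

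The 2 comparisons share no library, so their fold changes could be tested against each other. All 10 genes were positive in the tfs1DN comparison, where 49.9% of all genes were, and negative in seb1-1. That pair of signs was shared by 28.9% of the 5069 genes with both values. The log2 fold change in the tfs1DN comparison exceeded that in the seb1-1 comparison by 2.10 for mei2 (Wald test of the difference, adjusted p = 1.41e-06) and by 1.51 for mfm2 (adjusted p = 0.00977), and these passed the threshold. Over all genes 0.868% passed with the higher value in the tfs1DN comparison. The differences of ste11 (1.41, adjusted p = 0.0186), mfm3 (1.46, adjusted p = 0.0208) and mfm1 (1.42, adjusted p = 0.0284) did not pass. Those of mam2, map1, mam1, map3 and map2 ran from 1.30 down to 0.41, with adjusted p from 0.0621 to 0.752. The call of mfm2 was lost with the moderation undone, at an adjusted p of 0.0213, and that of mei2 was kept at 3.97e-06.

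**Figure D3:**
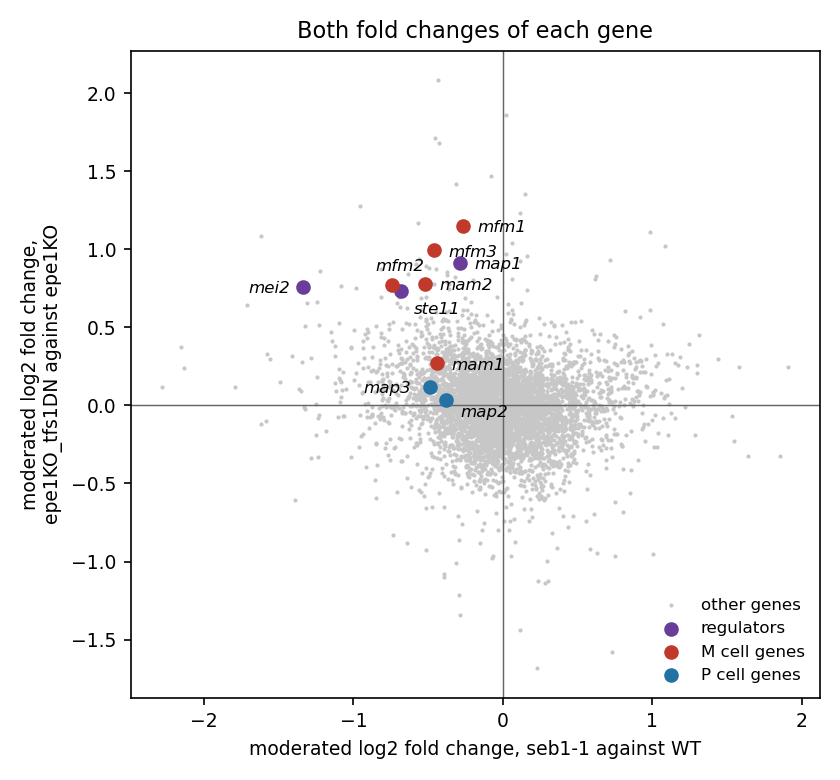
Moderated log2 fold change in the seb1-1 comparison (x axis) and in the tfs1DN comparison (y axis) for every gene with both values (grey), with the 3 regulators in purple, the 5 M cell genes in red and the 2 P cell genes in blue. All 10 lie in the upper left field, which holds 28.9% of all genes, and map2, map3 and mam1 lie lowest.

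The mean levels of mfm1, mfm2, mfm3, mei2, map1 and mam2 differed more between the pairs of groups than the implied levels did within either. This held by a small margin for mam1 and map2 as well, and did not hold for ste11 or map3. After division by the ratio of the median gene, the mean in the epe1KO and epe1KO_tfs1DN pair was 17.5 times that in the WT and seb1-1 pair for mfm1, 13.9 times for mfm2, 10.7 times for mei2, 10.09 times for mfm3 and 8.30 times for map1. Those 5 ratios lay between the 99.6th and the 99.9th percentile of 4994 genes. The ratio was 3.21 for mam2, 1.60 for ste11, 1.51 for mam1, 1.12 for map3 and 0.623 for map2. Thus mfm1, mfm2, mei2, mfm3 and map1 were the farthest from the median gene, while ste11 itself, mam1 and both P cell genes stayed within 2-fold of it. No test was made, since the tables were normalized separately. The pairs also differ in strain: ura4, a common marker gene, had a mean of 2022 in the WT and seb1-1 pair and 7.98 in the other. The label epe1KO and any such difference in strain or culture cannot be told apart here.

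Per kilobase of annotated transcript, ste11 was the highest of the 10 in the WT and seb1-1 pair, at 319 normalized counts per kb, followed by mfm2 at 228, mam1 at 141, map2 at 120 and map3 at 104. In the epe1KO and epe1KO_tfs1DN pair mfm2 came first, at 3440 per kb, then mei2 at 595, ste11 at 552, mfm1 at 412 and mfm3 at 292. The gene map2 came last there, at 81.2, and map1 came last in the other pair, at 20.4. Neighbours in these orders were not tested against each other.

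The M and P cell genes were also read as marker lists, since the labels give no mating type. Of 9 M cell markers 7 had an adjusted p in the tfs1DN comparison and 4 rose, where 2.37% of all genes rose. The list's median log2 fold change there was 0.66. All 4 are members, so the count repeats the results above, and the median does so in part. None of the markers outside the members rose. There mam3 had 0.55 (adjusted p = 0.0105) and sxa2 had 0.16 (adjusted p = 0.645), while matMc, at -0.23, had no adjusted p. In seb1-1 none of the list passed, with a median of -0.41. Summed over the list the mean count was 1858 for WT with seb1-1 and 3679 for the other pair. The defining gene matMi was listed at 0 in both tables and matMc at means of 0.467 and 6.22, but the mat genes have silent copies, so reads from them are hard to place. Of 6 P cell markers 4 were listed and none passed, with medians of 0.13 in the tfs1DN and -0.43 in the seb1-1 comparison and sums of 6219 and 13361. Most of each sum is the protease gene sxa1, with means of 5659 and 12254. Markers of both cell types thus had counts in both pairs. A change in the share of M and P cells and a change of RNA per cell cannot be told apart in such bulk samples.

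Further genes of the pathway were read from lists drawn up by function. In the pheromone signalling list of 9 genes, 3 rose in the tfs1DN comparison, where 2.37% of all genes rose. None rose in the seb1-1 comparison, where 0.181% of all genes did. The regulator of G protein signalling gene rgs1, whose product dampens the response, rose by a log2 fold change of 0.83 (adjusted p = 3.74e-06). The MAP kinase gene spk1 rose by 0.78 (adjusted p = 1.91e-06), and gpa1 rose by 0.55 (adjusted p = 0.00184). Those 3 had values of -0.32, -0.36 and -0.40 in seb1-1, none of which passed. With the Wald scores of the tfs1DN comparison scaled, mei2 no longer passed, at an adjusted p of 0.0163. The genes rgs1 and gpa1, with lower Wald scores than mei2, then did not pass either, and the scaled value of spk1 is not given here. The GTPase gene ras1 and the kinase genes byr1, byr2 and shk1, with log2 fold changes of -0.02, 0.06, -0.0050 and 0.03, did not pass in the tfs1DN comparison. The list's median was 0.31 there and -0.35 in seb1-1. In seb1-1 8 of 9 were negative, where 53.9% of all genes were, and none had an unadjusted p under 0.05 by the DESeq2 test. Over all genes the share with an unadjusted p under 0.05 was 9.29% in seb1-1 and 20.6% in the tfs1DN comparison. For rgs1 and spk1 the difference between the comparisons was 1.14 in each case, with adjusted p of 0.0621 and 0.0556.

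Genes that act at other steps did not pass in either comparison. Among 8 genes of pheromone processing and breakdown the medians were 0.10 in the tfs1DN and -0.09 in the seb1-1 comparison, with 0 and 1 genes at an unadjusted p under 0.05; the 1 was the farnesyltransferase subunit gene cwp1, at -0.94 (adjusted p = 0.106), named after its value was seen. In the tfs1DN comparison the P cell protease gene sxa1 had a log2 fold change of 0.14, the prenyl-protein protease gene ste24 one of -0.05, the P-factor processing gene krp1 one of 0.15 and the farnesyltransferase subunit gene cpp1 one of 0.11. Among 7 genes of agglutination and cell fusion the medians were -0.03 and -0.15, with 1 gene at an unadjusted p under 0.05 in each comparison. The M cell agglutinin gene mam3 came nearest, at 0.55 (0.24 to 0.85, adjusted p = 0.0105) in the tfs1DN comparison. Its P cell counterpart map4 had 0.25 there and -0.77 in seb1-1 (adjusted p = 0.357), and the fusion genes cfr1 and prm1 had -0.15 and -0.27 in the tfs1DN comparison. Thus the genes that passed in the tfs1DN comparison on these lists were all on the signalling list. The gene mam3 missed the threshold narrowly, at the same rounded log2 fold change as gpa1, 0.55. Lists were not tested against each other.

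The 22 listed inputs to ste11 hold both activators, such as the stress kinase Sty1 and the factor Atf1, and inhibitors, such as Pka1 and Pat1. In seb1-1 all 22 had a log2 fold change below 0, where 53.9% of all genes did. Their median was -0.38, against -0.03 over all genes, with a range from -0.77 to -0.04. None passed and 2 had an unadjusted p under 0.05, a share near the 9.29% of all genes. All 22 were measured in the same 4 libraries, so the shared sign is not 22 separate observations. The value of sty1 was -0.77 (adjusted p = 0.191), that of atf1 was -0.59, that of the zinc finger gene zfs1 was -0.48 and that of esc1 was -0.04. In the tfs1DN comparison 16 were positive, where 49.9% of all genes were, and none passed. The median there was 0.06, and 6 had an unadjusted p under 0.05, where 20.6% of all genes did. The values there were 0.38 for atf1 (adjusted p = 0.0429), 0.29 for esc1, 0.23 for zfs1 and -0.0066 for sty1, and pat1, named after its value was seen, had 0.41 (adjusted p = 0.0478).

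Genes of meiotic entry did not pass either, with 8 of 9 listed. Their medians were 0.19 in the tfs1DN and 0.10 in the seb1-1 comparison, with 0 and 1 genes at an unadjusted p under 0.05. The gene rec12, which encodes the enzyme that makes meiotic DNA breaks, had 0.28 in the tfs1DN and 0.81 in the seb1-1 comparison (adjusted p = 0.316). The axis protein gene rec10 had 0.22 and 0.58, the meiotic forkhead factor gene mei4 had 0.24 and 0.53, and the cohesin gene rec8 had 0.33 and 0.05. These 4 genes are named for their high means; over the list 5 values lay above 0 and 3 below in seb1-1, and 6 above and 2 below in the tfs1DN comparison.

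**Figure D4:**
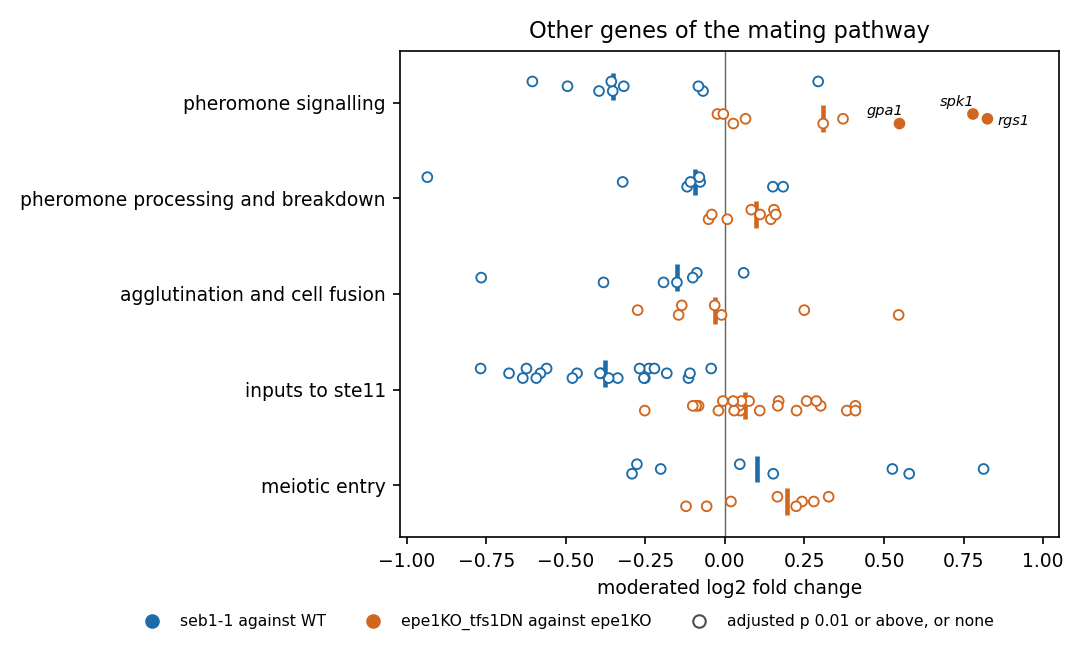
Moderated log2 fold change of the other genes on 5 lists of the mating pathway, each point a gene, in the seb1-1 comparison (blue) and the tfs1DN comparison (orange), with a bar at each list's median. Filled points passed an adjusted p of 0.01 and are named. They are gpa1, spk1 and rgs1 at 0.55, 0.78 and 0.83. All 22 blue points of the inputs to ste11 lie below 0, where 53.9% of all genes do.

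The surroundings of the genes were read from the order of genes in the reference annotation, where 6 of the 10 lie on chromosome I, 3 on chromosome II and 1 on chromosome III. Of the 20 listed genes next to them, none passed in seb1-1 and 2 rose in the tfs1DN comparison, with a median of -0.05. They are cyc3 beside ste11 (0.48, adjusted p = 0.0069) and npc2 beside mfm1 (0.61, adjusted p = 0.000101), named after their values were seen.

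Transcripts on the opposite strand overlap 6 of the 10 genes. The his6 gene covers 99.8% of map3, and its mean was 1331 in the first table and 1619 in the second, far above that of map3. The log2 fold change of his6 was 0.32 in seb1-1 and 0.06 in the tfs1DN comparison. Non-coding RNAs cover 100% of mfm3 and 81.4% of mam1. One covers 63.9% of map1 and another 27.6%, and smaller parts of ste11 and mei2 are covered. The kit marks strand, but no source used here gives the strand setting of the counting, so the values of map3, mfm3, mam1 and map1 are uncertain, and to a lesser extent those of ste11 and mei2; mfm1, mfm2, map2 and mam2 have no such overlap.

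The targeted genes, read from the same tables, did not separate the groups by level. The log2 fold change of seb1 in seb1-1 was -0.19 (-0.85 to 0.46), and that of tfs1 in the tfs1DN comparison was 0.22 (-0.03 to 0.47). The mean of epe1 was 706 in the table of the libraries labelled epe1KO and epe1KO_tfs1DN, and 712 in the other, so its counts do not show the deletion that the labels give. Depth was not given for any library. The sum of the listed means was 22456953 in the first table and 15644260 in the second, and the median SE of the log2 fold changes was 0.304 in the seb1-1 and 0.142 in the tfs1DN comparison. A given change was therefore harder to detect in seb1-1.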

How the data were processed

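The authors sequenced poly(A)-selected RNA with a directional kit, aligned it with TopHat and ran DESeq2 on each pair of groups; per the labels the build was ASM294v2, and no source used here gives versions or the counting tool. The deposited signal is a mean of counts, scaled by size factors, over the 4 libraries of a pair. Beside it the authors deposited a moderated log2 fold change with its SE, a Wald score (their ratio), and a p-value with its Benjamini-Hochberg adjustment after a filter on low counts. These columns of the authors' comparisons are the only values, so no model was refitted. The second table's direction came from the name of a supplementary sheet.

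Intervals are the fold change with 1.96 SE on either side. The difference between comparisons was divided by the root of its summed squared SEs, 2-sided, and adjusted over 5069 genes. Moderation was undone with a normal prior whose SD (0.768 and 0.422) is 2 times the largest SE in each table. The steps were tested on simulated data moderated with the same form of prior. That test therefore cannot show that the authors' moderation had this form. The study's threshold also asks for a fold over 2. Of 5129 IDs, 5111 matched the annotation of ASM294v3, used for symbols, lengths, order and overlaps only; coordinates and promoter motifs are not given. Named genes were the 10 members, list genes that passed, and up to 4 more per list with the highest means. Members and lists were chosen with earlier results of these data known. Python 3.11.15, pandas 2.3.3, numpy 2.4.6 and scipy 1.17.1 were used.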

Additional observations from a re-analysis of the deposited data

How the results depend on the processing

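The tables hold 2 libraries a group as fitted values only, which limits every result: no library could be left out. No paired analysis was possible because the tables carry no value per library. Of 7 genes that rose in the tfs1DN comparison, 1 (mfm1) remained when a log2 fold change above 1 was also asked for. The same count went from 7 to 1 when the Wald scores, whose robust spread over all genes was 1.48, were centred and scaled; mfm1 then had an adjusted p of 0.0093, mei2 0.0163, map1 0.0245, ste11 0.03, mfm2 and mfm3 0.0664 each and mam2 0.153. Calls over all genes went from 228 to 26 and to 45. In the seb1-1 comparison the same scaling took the count from 1 to 0 (mei2 at 0.0135; 20 genes in all, 24 before), with 2 of the 10 genes at an unadjusted p under 0.05 as deposited, and centring on the median gene gave mei2 a log2 fold change of -1.31 at an adjusted p of 0.0116. The count whose 2 fold changes differ went from 2 to 1 with the moderation undone, to 1 with scaled scores and to 5 at an adjusted p below 0.05. That looser threshold took all calls from 24 to 59 in the seb1-1 comparison, from 228 to 458 in the tfs1DN comparison and from 63 to 132 for the difference, and scaling took the last to 21. Adjusting over every gene with a p or keeping only means of 10 or more changed no count of members. The alternatives could not test the signs of the fold changes. Undoing the moderation keeps the sign, and centring moved each value by less than the value itself. The cause of the changes in these counts was not tested. The search for promoter motifs was not run.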
